A study of Mus musculus with 6 samples.

Results

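The 8 genes described here encode the machinery by which cells present peptides on major histocompatibility complex (MHC) class II molecules. They were chosen by name: the antigen-binding chains H2-Aa, H2-Ab1 and H2-Eb1, the invariant chain Cd74, the transactivator Ciita, the peptide-exchange chains H2-DMa and H2-DMb1, and the protease gene Ctss. All 8 were found among the 55487 genes of the count table. Megakaryocyte-erythroid progenitors, the shared marrow precursor of red cells and platelets, had been sorted out of bone marrow. All mice were wild type, of strain C57BL/6 and 8 weeks old. The 3 control libraries came from mice labelled control, with no word on their feeding, and the 3 fasted libraries from mice fasted for 6 h. The labels do not say whether a library is 1 mouse or a pool, so p-values measure the spread between libraries only. The study asked how a short fast acts on the formation of red cells.

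Class II molecules are heterodimers of an alpha and a beta chain. They are assembled in the endoplasmic reticulum on the invariant chain, which blocks the groove and directs them to endolysosomes. There cathepsin S trims the invariant chain to a short peptide, H2-DM exchanges it for antigen, and the loaded molecule goes to the surface for CD4 T cells to read. B cells, dendritic cells and activated macrophages express these genes most, and stem and progenitor cells of the marrow can carry them as well. C57BL/6 mice carry the H2-b haplotype, in which the gene of the I-E alpha chain is a pseudogene (H2-Ea-ps), so the beta chain from H2-Eb1 has no usual partner.

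Class II promoters are known for an upstream module of an X box and a Y box, the latter an inverted CCAAT. RFX, CREB and NF-Y bind there and CIITA docks on them. The stretches below are the 160 bases before the RefSeq start of 3 of the genes, of H2-Eb2, a neighbour that was near background here, and of Ctss, a gene outside the MHC. They come from RefSeq on GRCm38.p6, at chr17:34287824-34287983 (minus strand) for H2-Aa, chr17:34305707-34305866 for H2-Eb1, chr17:34153031-34153190 for H2-DMb1, chr17:34325515-34325674 for H2-Eb2 and chr3:95526626-95526785 for Ctss (plus strand for these 4). Capitals mark CCAAT, the X1-like box (GNNAC directly followed by NGATG) and the X2-like CGTCA, each on either strand, and overlapping matches merge.
H2-Aa: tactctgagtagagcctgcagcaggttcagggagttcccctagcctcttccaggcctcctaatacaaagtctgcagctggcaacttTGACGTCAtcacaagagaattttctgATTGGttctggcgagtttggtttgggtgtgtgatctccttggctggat
H2-Eb1: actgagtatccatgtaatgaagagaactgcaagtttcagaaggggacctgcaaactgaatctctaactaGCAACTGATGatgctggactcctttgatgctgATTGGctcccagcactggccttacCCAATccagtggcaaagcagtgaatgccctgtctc
H2-DMb1: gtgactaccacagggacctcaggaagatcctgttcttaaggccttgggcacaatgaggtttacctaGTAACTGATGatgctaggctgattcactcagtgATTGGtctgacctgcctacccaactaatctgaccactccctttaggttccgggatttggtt
H2-Eb2: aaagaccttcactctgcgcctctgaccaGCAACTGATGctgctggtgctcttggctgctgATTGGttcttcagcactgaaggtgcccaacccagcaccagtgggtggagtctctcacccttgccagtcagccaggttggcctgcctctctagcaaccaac
Ctss: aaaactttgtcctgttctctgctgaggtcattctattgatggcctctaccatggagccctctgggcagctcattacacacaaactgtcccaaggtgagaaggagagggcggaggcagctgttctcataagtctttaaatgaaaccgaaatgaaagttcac
The X1-like letters began 91 bases before the start of H2-Eb1, 94 before that of H2-DMb1 and 132 before that of H2-Eb2. In each of these, ATTGG, the inverted CCAAT, followed it, at 59, 61 and 100 bases before the start. H2-Aa held ATTGG at 48 bases and the X2-like letters of either strand, overlapping, at 74 and 71 bases before the start. The stretch of Ctss held none of these letters. H2-DMa has 2 RefSeq starts, not printed: 1 window of 250 bases held none of the letters and the other only ATTGG, at 198 bases before the start. Over 32851 RefSeq promoter windows of 250 bases, 33.8% held CCAAT, 2.50% the X1-like letters and 17.8% CGTCA, so CCAAT alone is common. In M21, the annotation used for positions, H2-DMb1 starts at 34153072 and H2-Eb2 at 34325665, each inside its stretch shown. A match of letters is not a measured binding site.

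The libraries differed in depth and in background, which bears on every level below. Totals ranged from 22445970 to 30246110 counts in control and from 12797144 to 18225191 in fasted libraries. Olfactory and vomeronasal receptor genes, as a rule not expressed in blood cells, served as a gauge of background: 1466 of them took 8.98 to 14.7 counts per kilobase in control and 14.2 to 16.0 in fasted libraries. Background is a larger share of the shallower fasted libraries. Trimmed-mean (TMM) scaling over all tested genes gave a median log2 fold change of 0.32 over all genes. Genes with a mean of at least 5 times the background rate are called well expressed here, and their median in that fit was -0.50. With library totals alone the median of all genes was 0.81, with TMM factors from well-expressed genes 0.82, and with RLE factors 0.13. CPM, counts brought to a common library size, follow the first scaling below unless library totals are named. Erythroid markers of the labelled cell were high: the erythroid factor gene Klf1 stood at 453 and the carbonic anhydrase gene Car1 at 2106 times the background. Of 16 erythroid and megakaryocyte markers 13 were well expressed, and Zfpm1, Vwf and Gp1bb were not. The progenitor genes Cd34 and Flt3 were present too, at 77.1 and 44.9 times.

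Class II transcripts were present in every library. Of the 8 genes, 7 were well expressed, from 29.7 times for H2-Aa to 232 times for Cd74, and Ciita alone was lower, at 2.65 times. Per kilobase of exon, Cd74 was the highest in control libraries, with 139 CPM per kilobase ± 30.8 (SD, n = 3). H2-Ab1 followed with 67.1 ± 12.3 and H2-DMa with 51.8 ± 5.12 CPM per kilobase (SD, n = 3 each). H2-DMb1 had 27.9 ± 4.81 and Ctss 26.1 ± 3.61, which did not differ beyond their spread. The same held for H2-Aa at 16.8 ± 5.73 and H2-Eb1 at 16.7 ± 6.78. Ciita was far below, at 1.60 CPM per kilobase ± 0.253 (SD, n = 3).

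None of the 8 genes passed the test between fasted and control libraries. The edgeR quasi-likelihood test passed 0 of 8 at a Benjamini-Hochberg adjusted p under 0.05, and 1 of 8, H2-DMa, had an unadjusted p under 0.05. DESeq2 and limma-voom passed 0 of 8 as well. Over all 36508 genes tested it passed 4.97%, 1.15% higher and 3.82% lower. The median log2 fold change was 0.35 over the 8 genes and 0.32 over all genes tested, with 5 of the 8 above 0 and 3 below. When only the 10648 well-expressed genes were scaled and tested, 0% passed, 0 of the 7 members in that fit passed, and 0 of 7 had an unadjusted p under 0.05. In that fit 2115 of the 10648 genes had an unadjusted p under 0.05. The spread among the fasted libraries, described next, was wide for the chain genes and for Cd74. In a bulk sample, fewer cells of a type and less RNA per cell cannot be told apart.

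**Figure D1:**
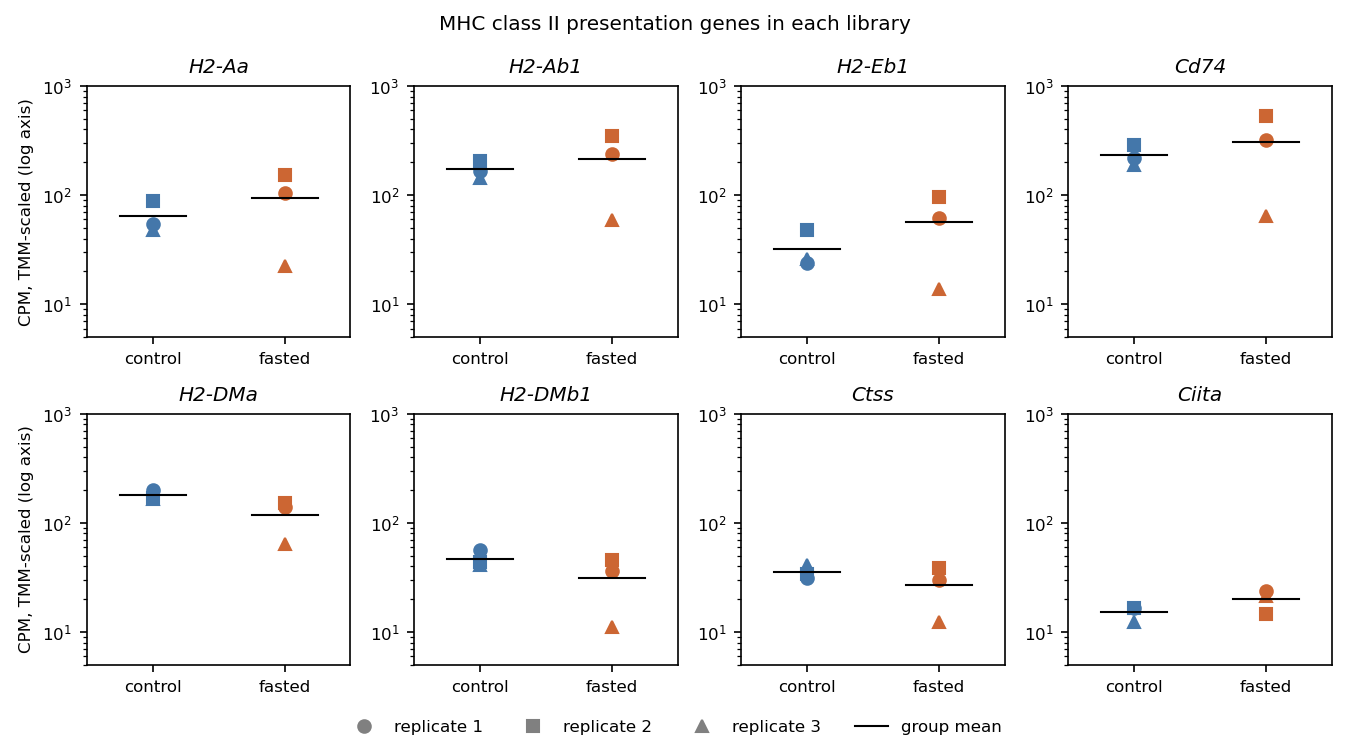
TMM-scaled CPM (log axis) of the 8 genes in each of the 6 libraries, with symbols for the replicate numbers and a line for the group mean. For the chain genes and Cd74, fasted libraries 1 and 2 lie above the 3 control libraries and fasted library 3 below them; Cd74 reaches 532 CPM in fasted library 2 and 64.6 CPM in fasted library 3.

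Cd74 encodes the invariant chain, the chaperone of newly made class II molecules (chromosome 18, 60803848 to 60812652, plus strand, ENSMUSG00000024610.15). It had 5034, 6491 and 3960 counts in control libraries 1 to 3, against 4966, 10177 and 1234 counts in fasted libraries 1 to 3. Scaled, these were 221, 290 and 189 CPM in control, against 319, 532 and 64.6 CPM in fasted libraries. Fasted libraries 1 and 2 were thus above every control library and fasted library 3 below every one, with an 8.24-fold range within the fasted group against 1.53-fold within the control group. The group means were 233 CPM ± 51.6 and 305 CPM ± 234 (SD, n = 3 each), and the fitted change on the log2 scale was 0.39 (SE 0.77), edgeR adjusted p 0.759.

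H2-Ab1 encodes the beta chain of I-A, the class II molecule that C57BL/6 mice do make (chromosome 17, 34257689 to 34269419, plus strand, ENSMUSG00000073421.6). It had 167, 206 and 144 CPM in control libraries 1 to 3, against 239, 346 and 59.5 CPM in fasted libraries 1 to 3. The pattern over libraries was that of Cd74, with a log2 fold change of 0.32 (SE 0.60), edgeR adjusted p 0.740. H2-Aa encodes the alpha chain that pairs with it (chromosome 17, 34282744 to 34287823, minus strand, ENSMUSG00000036594.15). Its levels were 54.6, 88.6 and 48.2 CPM in control, against 105, 154 and 22.3 CPM in fasted libraries. Again fasted library 3 was the lowest of the 6 and fasted library 2 the highest. The fitted change of H2-Aa on the log2 scale was 0.55 (SE 0.73), edgeR adjusted p 0.638.

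H2-Eb1, the beta chain gene of I-E (chromosome 17, 34305867 to 34316674, plus strand, ENSMUSG00000060586.11), had transcripts in every library, although the gene of its alpha partner is a pseudogene in this strain. It had 23.8, 47.6 and 25.9 CPM in control libraries 1 to 3, against 61.7, 95.8 and 13.9 CPM in fasted libraries 1 to 3. Fasted library 2 stood 6.88-fold above fasted library 3. With 0.82 (SE 0.74) it had the largest fitted log2 fold change of the 8 genes, edgeR adjusted p 0.496. An antisense gene model, Gm20513, overlaps its start, and whether counting used strand is not given in the sources used here. H2-Ea-ps itself had 17 to 48 counts per library, 1.99 times the background.

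Summed over these 4 genes, the 3 chains and Cd74, class II RNA made up 0.0351%, 0.0538% and 0.0380% of the counts in control libraries 1 to 3. It made up 0.0881%, 0.118% and 0.0206% in fasted libraries 1 to 3. The share was highest in fasted library 2 and lowest in fasted library 3. On TMM-scaled and on library-total CPM alike, each of the 4 genes had fasted libraries 1 and 2 above, and fasted library 3 below, all control libraries. On library totals H2-DMa and H2-DMb1 had the order too, so that 6 of the 8 genes did. Of the 10648 well-expressed genes, 0.563% had this order on TMM-scaled CPM and 0.949% on library totals. The order was singled out after the values were seen and has no test.

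H2-DMa and H2-DMb1 encode the chains of H2-DM, the editor that exchanges the invariant chain peptide for antigen, and they varied less. H2-DMa (chromosome 17, 34119541 to 34139101, plus strand, ENSMUSG00000037649.10) had 199, 169 and 167 CPM in control libraries 1 to 3, against 141, 153 and 64.2 CPM in fasted libraries 1 to 3. All 3 fasted values lay below the control values, an order that 15.1% of the tested genes had on this scaling. The fitted change on the log2 scale was -0.58 (SE 0.27), edgeR adjusted p 0.163. On library totals the groups overlapped: fasted libraries 1 and 2, at 171 and 161 CPM, lay above the control range of 144 to 156 CPM, and fasted library 3 was at 82.4 CPM. H2-DMa overlaps Brd2 on the other strand, where shared reads could go to either gene or to none.

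H2-DMb1 (chromosome 17, 34153072 to 34160230, plus strand, ENSMUSG00000079547.4) had 56.1, 43.6 and 41.0 CPM in control libraries 1 to 3, against 36.5, 45.4 and 11.2 CPM in fasted libraries 1 to 3. Fasted library 2 lay inside the control range and fasted library 3 far below it. On library totals H2-DMb1 had 44.4, 47.6 and 14.4 CPM in fasted libraries, against 37.1 to 42.3 CPM in control. The fitted change on the log2 scale was -0.60 (SE 0.39), edgeR adjusted p 0.315. H2-DMb2 is a close neighbouring copy, and how reads shared by the copies were counted is not given in the sources used here.

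Ctss encodes cathepsin S, the protease that trims the invariant chain (chromosome 3, 95526786 to 95556403, plus strand, ENSMUSG00000038642.10). It had 31.5, 34.0 and 41.0 CPM in control libraries 1 to 3, against 29.8, 38.5 and 12.2 CPM in fasted libraries 1 to 3. The fitted change on the log2 scale was -0.40 (SE 0.31), edgeR adjusted p 0.393. Its sign depended on the scaling, with 0.028 on library totals and 0.054 in the fit of well-expressed genes (edgeR adjusted p 0.945 and 0.948).

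Ciita, the gene of the transactivator on which class II transcription depends (chromosome 16, 10480059 to 10528418, plus strand, ENSMUSG00000022504.10), did not follow the genes it is known to control. It had 377, 374 and 261 counts in control libraries 1 to 3, against 369, 282 and 407 counts in fasted libraries 1 to 3. Background at the receptor rate would give 85.6 to 140 of these counts in control and 136 to 153 in fasted libraries, so 22.7% to 54.1% of the counts of Ciita could be background. The scaled levels were 16.5, 16.7 and 12.4 CPM in control, against 23.7, 14.7 and 21.3 CPM in fasted libraries. Fasted library 3, the lowest for the other 7 genes, was here above every control library. The fitted change on the log2 scale was 0.39 (SE 0.27), edgeR adjusted p 0.329.

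The call of Ciita depended on the scaling. On library totals its groups did not overlap, with all fasted values higher, as for 39.1% of all tested genes. It passed as higher with library totals alone (log2 fold change 0.90, edgeR adjusted p 0.0429) and with TMM factors from well-expressed genes (0.92, edgeR adjusted p 0.0373). Under these scalings 12.6% and 14.3% of all tested genes passed, 11.8% and 13.6% as higher, and the medians of all genes were 0.81 and 0.82. Minus the share of background, Ciita had 9.63, 9.45 and 5.40 CPM of library total in control libraries 1 to 3, against 18.2, 7.10 and 17.9 CPM in fasted libraries 1 to 3, and the groups overlapped. Ciita overlaps Dexi on the other strand.

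Relative to well-expressed genes, whose median in the same fit was -0.50, the chain genes and Cd74 stood higher, and H2-DM and Ctss near 0. The differences from that median were 1.05 for H2-Aa, 0.82 for H2-Ab1, 1.32 for H2-Eb1 and 0.89 for Cd74 on the log2 scale. They were -0.08 for H2-DMa, -0.10 for H2-DMb1 and 0.10 for Ctss. In the fit of well-expressed genes alone the log2 fold changes were 1.01 (SE 0.66) for H2-Aa, 0.78 (SE 0.57) for H2-Ab1, 1.26 (SE 0.67) for H2-Eb1 and 0.84 (SE 0.68) for Cd74. Their edgeR adjusted p lay between 0.346 and 0.531. H2-DMa and H2-DMb1 were at -0.09 (SE 0.25) and -0.11 (SE 0.39) there, with edgeR adjusted p of 0.860 and 0.897.

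Leaving out single fasted libraries moved these values. Fasted library 3 was singled out after its values were seen. It was the lowest of the 6 libraries for 7 of the 8 genes, an order that 43.0% of well-expressed genes had on TMM-scaled CPM and 18.3% on library totals. Without it the log2 fold changes over all genes were 1.00 (SE 0.29) for H2-Aa, 0.75 (SE 0.26) for H2-Ab1, 1.26 (SE 0.31) for H2-Eb1 and 0.86 (SE 0.28) for Cd74. The edgeR adjusted p of these lay between 0.181 and 0.190, and 0.0183% of all genes passed in that fit, all lower. Without fasted library 2, in contrast, the signs of H2-Aa, H2-Ab1 and Cd74 turned in the fit of all genes, to -0.081, -0.27 and -0.35, and H2-Eb1 had 0.15. In the fit of well-expressed genes without that library they stayed above 0, at 0.51, 0.32 and 0.24. With all libraries kept, limma-voom gave -0.0061 for H2-Ab1 and -0.051 for Cd74.

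**Figure D2:**
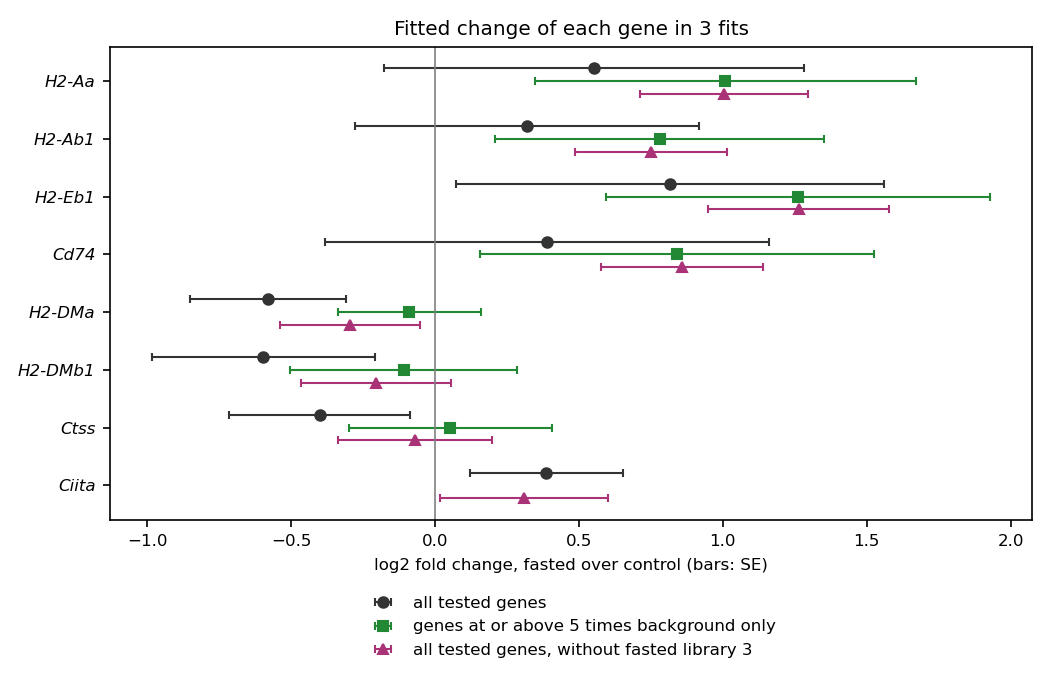
Log2 fold change, fasted over control, with its SE for the 8 genes in 3 edgeR fits: all tested genes, well-expressed genes only (Ciita not tested there), and all tested genes without fasted library 3. The chain genes and Cd74 lie above 0 in the 3 fits, from 0.32 to 1.26, and no value passed at an adjusted p under 0.05.

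Ratios between genes within a library do not depend on the scaling. Per kilobase, Cd74 stood to H2-Ab1 at 2.02, 2.15 and 2.01 in control libraries 1 to 3, against 2.04, 2.35 and 1.66 in fasted libraries 1 to 3. Thus Cd74 and H2-Ab1 moved nearly in step while each ranged over several fold. H2-Aa stood to H2-Ab1 at 0.221, 0.291 and 0.227 in control, against 0.295, 0.301 and 0.253 in fasted libraries. H2-Eb1 stood to H2-Ab1 at 0.188, 0.305 and 0.238 in control, against 0.341, 0.366 and 0.309 in fasted libraries. The groups of this ratio did not overlap, but only by 0.309 in fasted library 3 against 0.305 in control library 2. Background, not subtracted here, could be 10.8% of the H2-Eb1 counts in fasted library 3 and 2.39% in control library 2. For H2-Ab1 these shares were 3.34% and 0.731%, so the separation may not hold without background. The ratio of H2-DMa to H2-DMb1 was 1.73, 1.89 and 1.99 in control, against 1.88, 1.65 and 2.80 in fasted libraries.

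Across the groups of genes the ratio moved more. H2-Ab1 stood to H2-DMa at 1.13, 1.63 and 1.15 in control, against 2.28, 3.03 and 1.24 in fasted libraries 1 to 3. Cd74 stood to H2-DMa at 2.28, 3.52 and 2.32 in control, against 4.66, 7.14 and 2.07 in fasted libraries. In fasted libraries 1 and 2 the I-A chains and Cd74 were thus high relative to H2-DM, and in fasted library 3 all of them were low together.

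**Figure D3:**
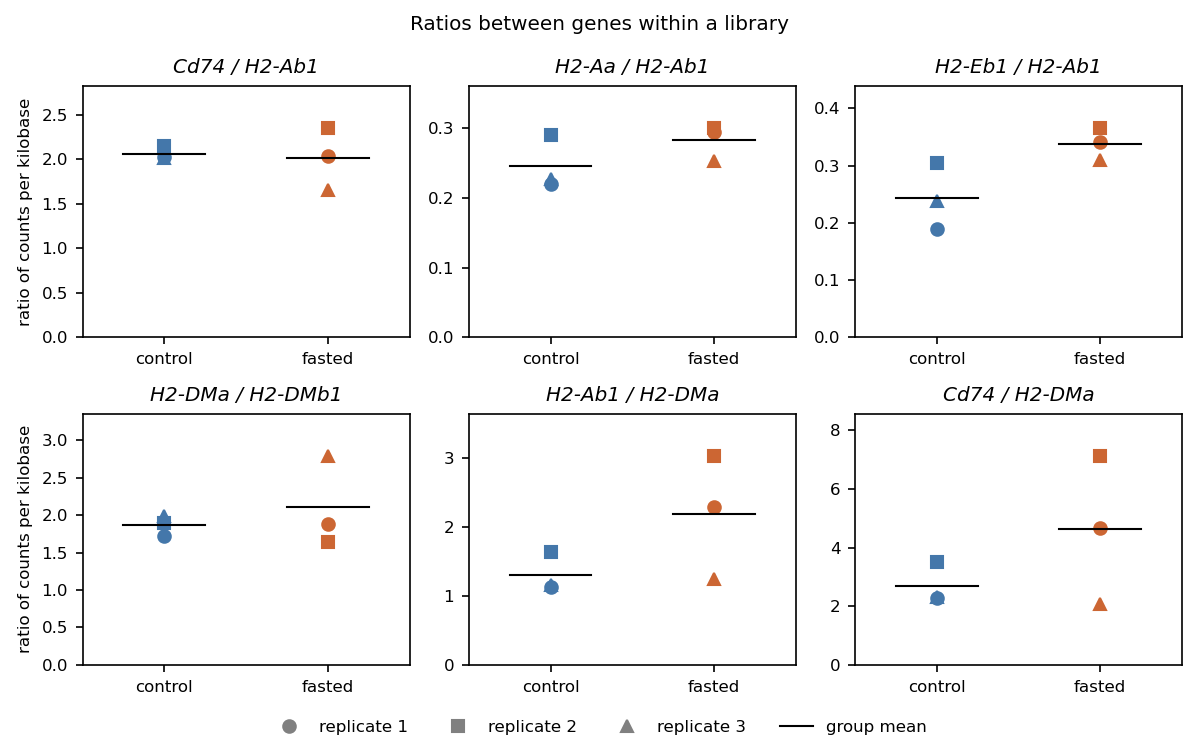
Ratios of counts per kilobase between pairs of the genes within each library, with symbols for the replicate numbers and a line for the group mean, on axes from 0. Cd74 to H2-Ab1 stays between 1.66 and 2.35 in the 6 libraries, while Cd74 to H2-DMa spans 2.07 to 7.14.

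Pearson correlations of log2 CPM over the 6 libraries describe the same order. They share depth and background and carry no test. Cd74 and H2-Ab1 had r = 1.00, H2-Aa and H2-Ab1 0.98, H2-DMa and H2-DMb1 0.99, and H2-DMa and Ctss 0.92. Between the chain genes or Cd74 and H2-DMa, H2-DMb1 or Ctss r ran from 0.47 to 0.83, and between Ciita and the other 7 genes it lay between -0.65 and -0.08.

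Among the other genes of the class II region, 0 of 5 passed. H2-Oa and H2-Ob encode H2-DO, the inhibitor of H2-DM, and had 12.1 and 17.9 times the background. H2-Ob had 2154, 1517 and 1196 counts in control libraries 1 to 3, against 1089, 1420 and 505 counts in fasted libraries 1 to 3. The fitted change on the log2 scale was -0.36 (SE 0.32), and that of H2-Oa -0.61 (SE 0.33), edgeR adjusted p 0.447 and 0.215. As with H2-DM, fasted library 3 was the lowest for H2-Oa and H2-Ob. H2-DMb2 stood at 6.54 times the background with 0.21 (SE 0.29), edgeR adjusted p 0.634. H2-Eb2, which has the X1-like and ATTGG letters shown above, stood at 1.92 times the background, with 74 to 100 counts per library.

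Of 16 genes of factors that bind class II promoters or act on Ciita, 1 passed, higher, against 1.15% of all genes: Bcl6, the gene of a repressor of germinal centre B cells, with a log2 fold change of 1.14 (SE 0.28), edgeR adjusted p 0.0367. Bcl6 stood at 2.47 times the background. The highest per kilobase were Spi1, Irf8 and Nfyc, which encode the myeloid and B cell factor PU.1, an interferon regulatory factor and an NF-Y subunit. Spi1 had 155, 180 and 233 CPM in control libraries 1 to 3, against 138, 127 and 43.6 CPM in fasted libraries 1 to 3, with -0.88 (SE 0.34), edgeR adjusted p 0.113. Irf8 had -0.46 (SE 0.30) and Nfyc -0.54 (SE 0.22), edgeR adjusted p 0.314 and 0.124. The RFX genes were low, with Rfx5 at 3.88, Rfxap at 1.67 and Rfxank at 6.48 times the background. The median over the 16, of which 8 were well expressed, was -0.46. In the same fit it was 0.32 over all genes and -0.50 over well-expressed genes. In the fit of well-expressed genes the median of the 8 was -0.06, against 0.02 over all genes of that fit.

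Of 15 genes of endolysosomal processing, 3 passed, all lower in fasted libraries, against 3.82% of all genes. They were Cd63, a tetraspanin of late endosomes, Lamp2, a lysosomal membrane protein, and Ctsz, cathepsin Z. The fitted log2 fold changes were -1.51 (SE 0.25), -1.02 (SE 0.23) and -1.02 (SE 0.23), edgeR adjusted p 0.00854, 0.0333 and 0.0333. With library totals alone 3 of the 15 passed, all lower, where 0.797% of all genes did. None passed in the fit of well-expressed genes or without fasted library 3. Of the most abundant, Cst3, the cystatin C inhibitor of cathepsins, had -0.43 (SE 0.29) and Lamp1 -0.68 (SE 0.22), edgeR adjusted p 0.330 and 0.0630. The median over the 15, of which 14 were well expressed, was -0.18. In the same fit it was 0.32 over all genes and -0.50 over well-expressed genes. In the fit of well-expressed genes the median of the 14 was 0.17, against 0.02 over all genes of that fit.

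MHC class I genes, which present peptides to CD8 T cells, were measured beside the class II genes. B2m, the shared light chain, had 59536, 50548 and 43288 counts in control, against 21102, 33131 and 20189 counts in fasted libraries, 3239 times the background. H2-K1 and H2-D1, the heavy chain genes, stood at 603 and 962 times, with log2 fold changes of -0.52 (SE 0.24) and -0.55 (SE 0.24), edgeR adjusted p 0.163 and 0.146. B2m had -0.74 (SE 0.24), edgeR adjusted p 0.0607. Of the 17 class I genes, 10 passed, all lower, against 3.82% of all genes, with a median of -0.92. All 17 were well expressed, and the median of well-expressed genes in the same fit was -0.50. In the fit of well-expressed genes the median of the 17 was -0.43, against 0.02 over all genes of that fit. The 10 that passed include Pdia3 (-1.22, SE 0.23), Calr (-1.08, SE 0.24), Erap1 (-1.13, SE 0.23) and Psmb10 (-1.06, SE 0.24). These are genes of a folding enzyme, a chaperone, a trimming peptidase and an immunoproteasome subunit (edgeR adjusted p 0.0193 to 0.0326). With library totals alone 6 passed, all lower, where 0.797% of all genes did, and in the fit of well-expressed genes 0 passed, where 9 had an unadjusted p under 0.05. Without fasted library 3, 0 of the 17 passed.

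Of 16 genes of the interferon gamma pathway, a route that induces Ciita in many cells, 2 passed, both lower, against 3.82% of all genes: the guanylate-binding protein gene Gbp7 (-0.97, SE 0.24) and the immunity-related GTPase gene Igtp (-1.09, SE 0.28), edgeR adjusted p 0.0374 and 0.0383. The receptor gene Ifngr1 had -0.76 (SE 0.24) and Jak1 -0.48 (SE 0.23), edgeR adjusted p 0.0589 and 0.179. Cxcl10, a chemokine gene, ranged from 91 counts in control library 1 to 1862 in fasted library 2, with 0.86 (SE 1.04), edgeR adjusted p 0.611. The median over the 16, of which 12 were well expressed, was -0.47. In the same fit it was 0.32 over all genes and -0.50 over well-expressed genes. In the fit of well-expressed genes the median of the 12 was -0.02, against 0.02 over all genes of that fit. With library totals alone 0 of the 16 passed.

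The 8 genes most like the mean profile of H2-Aa, H2-Ab1 and Cd74 over the 6 libraries were Ufsp1, H2-Q6, Id2, Plbd1, Lsp1, Epc1, Flt3 and Dcaf5, with Pearson r from 0.95 to 1.00. They were taken from 10626 well-expressed genes that have a symbol, of which 41 had r over 0.9, members included. Members and unnamed gene models, such as those with Gm or Rik symbols, were passed over in taking the 8. H2-Q6 is one of several similar class I genes, between which reads may be shared. Id2 had 24.0, 25.4 and 22.9 CPM in control libraries 1 to 3, against 30.3, 44.9 and 11.3 CPM in fasted libraries 1 to 3. Flt3, the gene of a cytokine receptor of early progenitors, had 171, 178 and 168 CPM in control, against 220, 286 and 124 CPM in fasted libraries. The fitted change on the log2 scale was 0.29 (SE 0.26), edgeR adjusted p 0.456. None of the 8 passed.

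**Figure D4:**
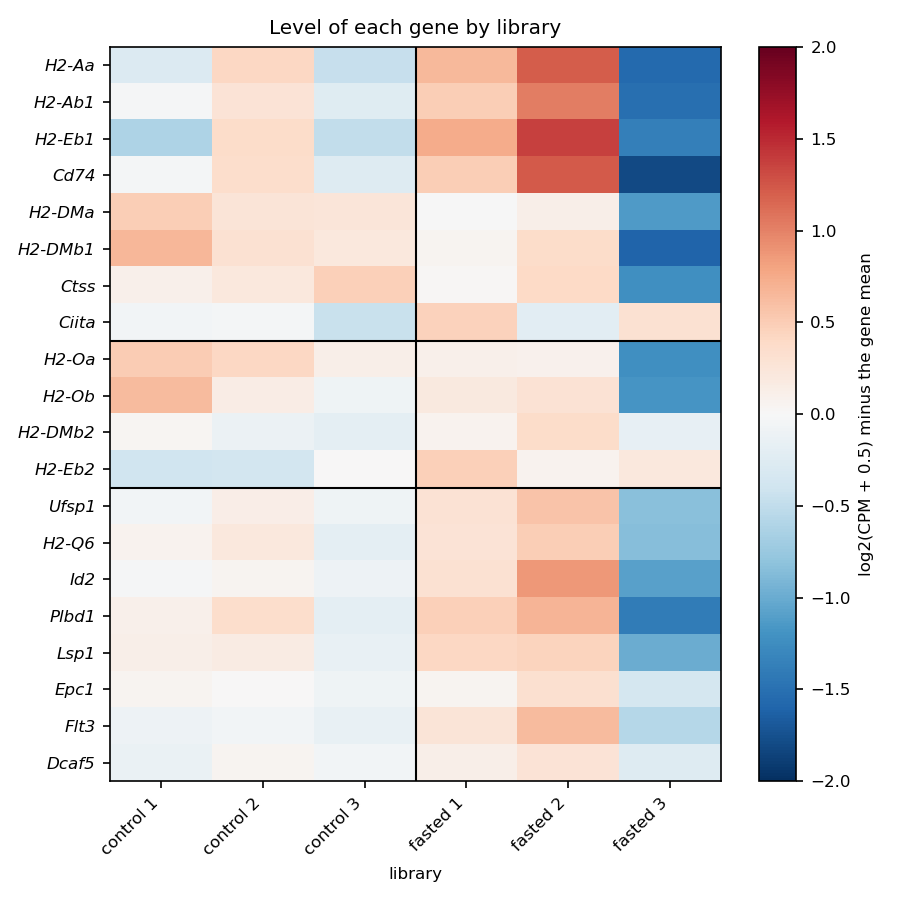
Log2(CPM + 0.5) minus the gene's mean over the 6 libraries (columns) for the 8 class II genes, 4 neighbours of the class II region and the 8 named genes of most like profile (rows, in 3 blocks). The chain genes and Cd74 are high in fasted library 2 and low in fasted library 3; Ciita is not low there.

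Markers of other cells that express class II genes were measured beside them. Of 16 B cell markers, 6 were well expressed, and 0 passed. Their summed level was 103 to 175 CPM of library total in control libraries and 342, 233 and 186 in fasted libraries 1 to 3, with 10 of the 16 nearer to background. Over the 6 well-expressed markers it was 53.9, 104 and 87.9 CPM of library total in control, against 187, 124 and 66.3 in fasted libraries, and the groups overlapped. Cd79b, a chain of the B cell receptor complex, was the highest per kilobase, with 771, 926 and 902 counts in control, against 591, 585 and 218 counts in fasted libraries. Vpreb1 and Cd79a followed, at 17.8 and 15.4 times the background, with 0.47 (SE 0.45) and 0.45 (SE 0.34), edgeR adjusted p 0.492 and 0.364. With library totals alone 4 of the 16 passed, all higher, where 11.8% of all genes passed as higher. Pax5 and Ms4a1, which define B cells, stood at 1.03 and 1.38 times the background. The B cell sum was highest in fasted library 1.

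Of 16 dendritic cell markers, 5 were well expressed and 1 passed, lower, against 3.82% of all genes: Bst2 (-1.19, SE 0.25, edgeR adjusted p 0.0277). The sum was 416 to 436 CPM of library total in control, against 592, 605 and 472 in fasted libraries 1 to 3, and Flt3 is part of it. Itgax, Xcr1, Clec9a and Siglech, which define dendritic cell types, stood at 1.69, 2.09, 1.23 and 2.73 times the background. With library totals alone 2 of the 16 passed as higher and 1 as lower, against 11.8% and 0.797% of all genes. The 5 well-expressed markers summed to 374 to 385 CPM of library total in control, against 508, 523 and 396 in fasted libraries. Zbtb46 stood at 7.99 times, with 0.03 (SE 0.27), edgeR adjusted p 0.941.

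Of 16 monocyte and macrophage markers, 7 were well expressed and 3 passed, all lower, against 3.82% of all genes: Lyz2 (-0.96, SE 0.24), Cx3cr1 (-1.22, SE 0.31) and Ccr2 (-1.00, SE 0.28), edgeR adjusted p 0.0370 to 0.0465. The sum was 470 to 1133 CPM of library total in control, against 347 to 624 in fasted libraries. Ly6c2 ranged from 556 to 5435 counts in control libraries, and Cd68 had -0.88 (SE 0.27), edgeR adjusted p 0.0545. The sum was lowest in fasted library 3. So were the sums of the class II genes, their neighbours, and the promoter factor, endolysosomal, class I, interferon gamma and stem cell lists. On library totals those of the B cell, dendritic cell, T and natural killer cell, and erythroid and megakaryocyte markers were not. On TMM-scaled CPM the dendritic cell sum was lowest there too, at 368 CPM, against 467 to 553 CPM in control libraries. Of 12 T and natural killer cell markers, Lck alone was well expressed, at 9.74 times the background, and 0 passed. With library totals alone 4 of the 12 passed, all higher, where 11.8% of all genes did. Il7r and Trac stood at 3.17 and 3.20 times the background, with 0.67 (SE 0.27) and 0.39 (SE 0.48), edgeR adjusted p 0.121 and 0.588. The sum over the 12, of which 11 were nearer to background, was 43.4 to 48.9 CPM of library total in control, against 72.8 to 94.5 in fasted libraries. Lck alone had 21.1, 14.6 and 16.2 CPM of library total in control, against 27.7, 18.0 and 17.9 in fasted libraries, and the groups overlapped. None of the 88 marker genes was at 0 in any library, and the part of other cells in the class II levels was not tested.

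**Figure D5:**
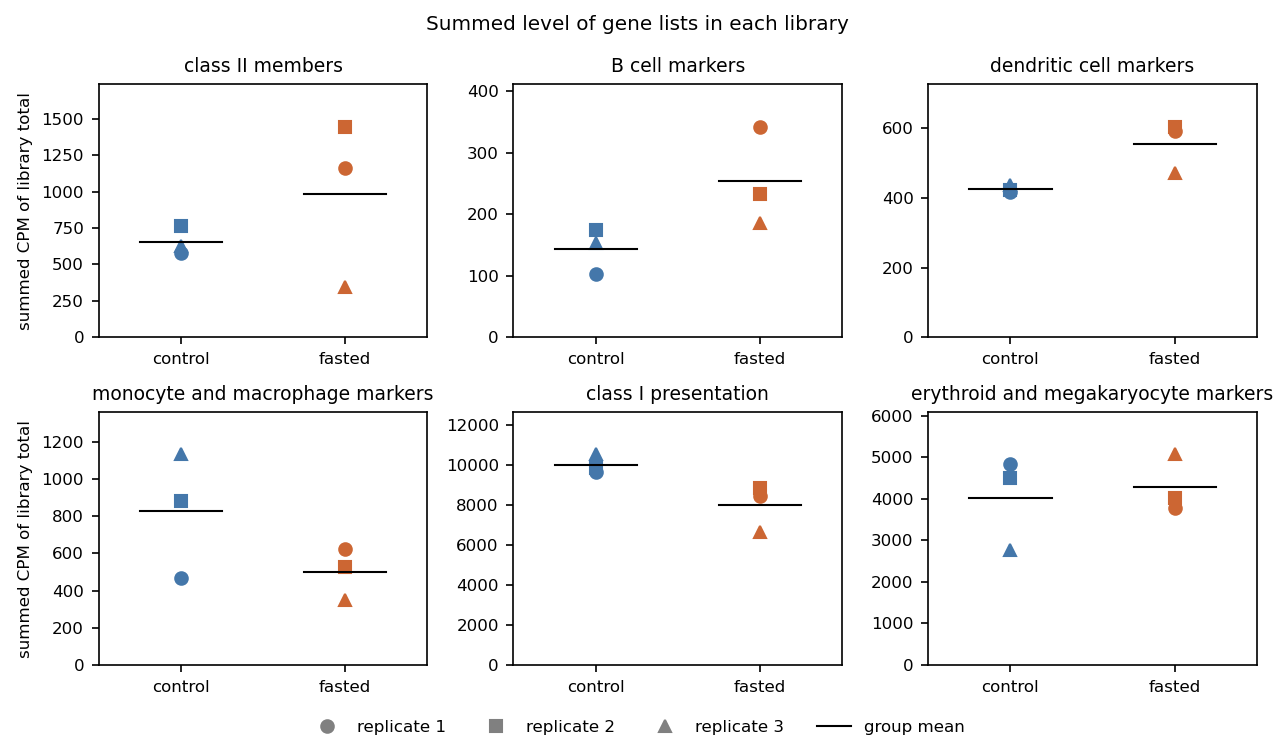
Summed CPM of library total for 6 gene lists in each library, with symbols for the replicate numbers and a line for the group mean, on axes from 0. The class II sum is 345.7 in fasted library 3 and 1447.5 in fasted library 2, while the monocyte and macrophage sum is highest in control library 3, at 1133.

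Markers of the labelled cells were measured as well. Of 15 tested erythroid and megakaryocyte markers 2 passed, both lower, against 3.82% of all genes, among them the platelet chemokine gene Pf4 (-1.36, SE 0.28), edgeR adjusted p 0.0277. The sum over the list was 4839, 4490 and 2756 CPM of library total in control libraries 1 to 3, against 3773, 4015 and 5067 in fasted libraries 1 to 3, with fasted library 3 the highest. On TMM scaling the sums were 6422, 5278 and 2950 CPM in control, against 3104, 3827 and 3947 in fasted libraries, and control library 1 was the highest. All 15 tested markers had a fitted change below 0 on that scaling. Their median was -0.63, where that of well-expressed genes was -0.50. In the fit of well-expressed genes 13 of them were tested, 5 above 0 and 8 below, with a median of -0.11. Gfi1b, the gene of an erythroid and megakaryocytic repressor, had -0.71 (SE 0.49) in the fit of all genes. Klf1 had -0.63 (SE 0.37) there, and the edgeR adjusted p were 0.359 and 0.267. The level of Klf1 ranged from 4716 counts in control library 3 to 19560 in control library 1. Of 14 stem and multipotent progenitor markers 3 passed, all lower, against 3.82% of all genes: Cd48 (-1.41, SE 0.29), Cd34 (-1.12, SE 0.29) and Meis1 (-1.03, SE 0.29), edgeR adjusted p 0.0277 to 0.0457. The stem cell factor receptor gene Kit had -0.86 (SE 0.28), edgeR adjusted p 0.0650. The summed level of this list was lowest in fasted library 3, at 998 CPM of library total, against 1224 to 1672 in control libraries. In the fit of well-expressed genes and in the fit of all genes without fasted library 3, 0 genes passed in each of these marker and pathway lists. With library totals alone, 1 monocyte and macrophage marker passed, higher, and 1 erythroid and megakaryocyte marker, lower, where 11.8% of all genes passed as higher and 0.797% as lower. Of the stem and progenitor markers 2 then passed as higher and 1 as lower, and of the promoter factors 2 as higher.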

How the data were processed

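RNA of sorted progenitors was sequenced in 6 libraries. The table the authors deposited holds raw read counts for every gene beside its exonic length, and the submitters' processing notes name HISAT2 2.2.1, featureCounts 2.0.1 and GRCm38, with no role or order. Strand handling and the annotation release are not given in the sources used here. Of 55487 identifiers 55227 matched GENCODE M21, and for all 54435 with the same version the deposited length equalled the merged exon length. The table had 0 rows without a gene. Groups came from the labels.

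Genes were kept with filterByExpr (36508), scaled by TMM and fitted with edgeR 4.0.16 in R 4.3.3 (estimateDisp, glmQLFit and glmQLFTest, robust, group as the only term), with Benjamini-Hochberg adjustment over all tested genes and a threshold of 0.05. The SE is the log2 fold change divided by the square root of F. Background is the summed count of 1466 protein-coding receptor genes over their summed length, and a gene is well expressed where its mean over the 6 libraries is at least 5 times that rate. Alternatives used DESeq2 1.42.0 (no adjusted p for 33859 genes) and limma-voom (limma 3.58.1). Total counts were 12797144 to 30246110 per library, and PCR reads without molecular identifiers are not independent molecules.

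The members and gene lists were chosen with earlier results of these data known. Named genes were the 8 members, 5 neighbours, and of each list the calls (at most 4, by p) and the 3 highest per kilobase, plus the 8 most like profiles. Rfx5, Rfxap, Rfxank and the defining markers outside that rule were named after their values were seen. H2-Ea is listed as H2-Ea-ps. The values of 1 marker gene that passed are not reported here.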

Additional observations from a re-analysis of the deposited data

How the results depend on the processing

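The count of class II genes passing was 0 of 8 in the test as reported. It was 1, Ciita, with library totals alone and with TMM factors from well-expressed genes (Ciita log2 fold change 0.90 and 0.92), and 0 in the other settings and in all 12 fits that leave out a library. With the replicate number as a block it stayed at 0, Cd74 turned to -0.012, and over all genes 146 passed. Same-numbered libraries did not deviate together (correlations of -0.16, 0.13 and -0.27), so the numbers were not taken as pairs.

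Over all 36508 genes tested 1813, or 4.97%, passed as reported. The count was 2973 with RLE factors, 4587 with library totals alone, 5217 with TMM factors from well-expressed genes, 2849 without a low-count filter, 3384 with at least 10 counts in every library, 558 with non-robust dispersion, 5883 with DESeq2, and 0 in the fit of well-expressed genes and after background subtraction. Of these, 301, 4296, 4962, 631, 1236, 104 and 298 were higher, in the order given, against 420 as reported. The number of genes tested was not the same in all of these. It was 52922 without a low-count filter and with DESeq2, which gave no adjusted p for 33859. With at least 10 counts in every library it was 28248. In the fit of well-expressed genes and after background subtraction it was 10648. Of 67 tested genes in the 5 pathway lists together 16 passed. The count was 10 with TMM factors from well-expressed genes, 4 with the replicate block and 10 with non-robust dispersion. It was 35 with DESeq2 and 0 of 53 in the restricted and background-subtracted fits. Of 87 tested genes in the 6 marker lists together 9 passed. The count was 14 with RLE factors, 15 with library totals and 20 with TMM factors from well-expressed genes. It was 14 of 88 without a filter and 15 of 86 with at least 10 counts. It was 2 with the block and 4 with non-robust dispersion. It was 21 of 88 with DESeq2 and 0 of 39 in the restricted and background-subtracted fits. The cause of these moves was not tested.

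Leaving out 1 library at a time, in the fits of all and of restricted genes, gave 0 to 5379 calls over all genes (7 without fasted library 3, 5379 without control library 3), 0 to 28 in the pathway lists and 0 to 19 in the marker lists. The log2 fold changes ranged from -0.081 to 1.46 for H2-Aa, -0.27 to 1.21 for H2-Ab1, 0.15 to 1.71 for H2-Eb1, -0.35 to 1.31 for Cd74, -0.87 to 0.18 for H2-DMa, -1.04 to 0.27 for H2-DMb1, -0.83 to 0.37 for Ctss and 0.23 to 0.49 for Ciita. Without fasted library 3, in the fit of all genes, H2-Aa had 1.00, H2-Ab1 0.75 and Cd74 0.86. Signs turned without fasted library 2 in the fit of all genes for H2-Aa, H2-Ab1 and Cd74 (0.51, 0.32 and 0.24 in the restricted fit), without fasted library 3 in the restricted fit for H2-DMa (0.18), H2-DMb1 (0.27) and Ctss (0.37), and without control library 3 there for Ctss (0.25). With limma-voom H2-Ab1 was -0.0061 and Cd74 -0.051. Ctss was 0.054 in the restricted fit, 0.028 with library totals, 0.054 with TMM factors from well-expressed genes and 0.097 after background subtraction. The summed level of the chain genes and Cd74, as log2 of fasted over control means, was 0.42 as reported, 0.84 with library totals and 0.88 with TMM factors from well-expressed genes.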
